A study of Homo sapiens with 6 samples.

Results

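Keratin transcripts were measured in C666-1, an Epstein-Barr virus-positive human line of nasopharyngeal carcinoma cells, after 24 h in medium lacking serine and glycine or in complete medium. The genes described are 10 epithelial keratins, chosen by symbol from the 16407 genes of the deposited table. KRT7, KRT8, KRT18 and KRT19 form a group of 4 simple epithelial keratins, and KRT5, KRT10, KRT14, KRT15, KRT16 and KRT17 a group of 6 stratified epithelial keratins. The deprived medium contained neither serine nor glycine, and complete medium contained 0.4 mM of each. Both were minimal essential medium without non-essential amino acids, with 4.5 g/L glucose, 10% dialyzed fetal bovine serum and antibiotics. There were 3 libraries for each medium, numbered 1 to 3 in the labels, from 1 cell line. The labels do not say whether they came from separate cultures, and the p-values below speak only to the scatter of these libraries, part of which may be technical.

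Keratins are the intermediate filament proteins of epithelial cells. A filament is built from pairs of an acidic type I keratin and a basic type II keratin, so that cells make both types, and each epithelium has its own usual pairs. KRT8 with KRT18 is the founding pair of simple, single-layered epithelia, and KRT7 and KRT19 are added in ducts and glands. KRT5 with KRT14 is the pair of the basal layer of stratified epithelia, KRT10 marks cells that have left that layer, and KRT16 and KRT17 are known from wounded or rapidly growing epithelium. Nasopharyngeal carcinoma usually stains for keratins of the basal kind in pathology.

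The libraries held 16756359, 16676318 and 17030355 estimated counts in the deprived medium, and 16612196, 16902750 and 16876086 in complete medium. Both libraries numbered 1 deviated from their media in a like way, with a correlation of 0.326 over genes, and values without them are given where leaving them out changed a call. Of 9 epithelial markers, 8 were in the table, and CLDN7, a tight junction claudin, was at 63.0 to 90.1 TPM in the deprived medium and 76.2 to 90.9 TPM in complete medium. TPM is a level scaled by gene length and depth. The surface glycoprotein EPCAM was at 10.0 to 11.7 TPM in the deprived medium and 10.1 to 10.9 TPM in complete medium. The defining epithelial cadherin CDH1 was almost absent, at 0.05 to 0.21 TPM in the deprived medium and 0.10 to 0.17 TPM in complete medium, and RAB25 was above 0 in 1 library alone, at 0.28 TPM in complete medium. VIM, the intermediate filament protein of mesenchymal cells and of many cultured lines, was at 482.2 to 542.9 TPM in the deprived medium and 514.5 to 578.4 TPM in complete medium. Markers of other cell types were low. Summed over 7 fibroblast markers the level was 15.5 to 21.0 TPM in the deprived medium and 16.3 to 21.0 TPM in complete medium, and over 4 endothelial markers 0.80 to 1.58 TPM in the deprived medium and 0.53 to 1.15 TPM in complete medium. The 6 immune markers summed to 50.9 to 59.0 TPM in the deprived medium and 69.8 to 79.1 TPM in complete medium, nearly all of it CD68, a lysosomal protein. The leukocyte marker PTPRC was at 0 to 0.05 TPM in the deprived medium and at 0 in complete medium.

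Among the 10 genes, the keratin transcripts of C666-1 cells were mainly those of simple epithelium. The 4 simple keratins summed to 4015, 3834 and 3591 TPM in the deprived medium, against 4612, 4843 and 4452 TPM in complete medium. The 6 stratified keratins summed to 162.4, 168.9 and 153.7 TPM in the deprived medium, against 180.9, 190.6 and 166.9 TPM in complete medium. The stratified group thus made up 4.07 ± 0.169% (SD, n = 3) of the summed TPM of the 10 genes in the deprived medium and 3.73 ± 0.0973% in complete medium. Every deprived library had a higher share than every library of complete medium, and the means differed by 0.345 percentage points, with no test made of this sum. Together the 10 genes took 0.397 ± 0.0218% of the TPM of the table in the deprived medium and 0.482 ± 0.0208% in complete medium.

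Levels of single keratins spanned several orders of magnitude. In the deprived medium the order of mean TPM was KRT7, KRT18, KRT8, KRT17, KRT19, KRT10, KRT16, KRT15, KRT14 and KRT5. The ranges of neighbours in this order did not overlap except for KRT17, at 78.0 to 92.6 TPM, and KRT19, at 77.9 to 85.4 TPM. In complete medium KRT19 stood above KRT17, at 108.6 to 114.9 against 88.2 to 107.7 TPM, and KRT14 and KRT5 were the only neighbours whose ranges overlapped. KRT7 was the 49th, 53rd and 62nd most abundant gene of the table in the 3 deprived libraries, and the 33rd, 33rd and 40th in complete medium.

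**Figure D1:**
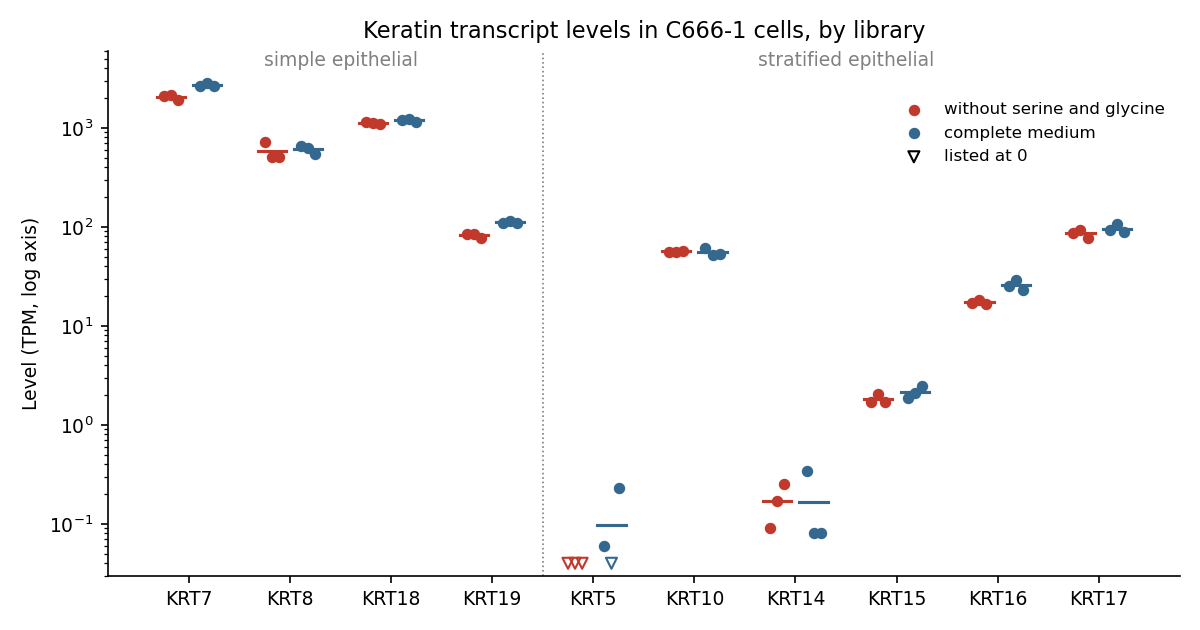
Level of each keratin in TPM on a log axis, with 1 point per library (n = 3 each), bars at the mean, the deprived medium in red left of complete medium in blue, and open triangles for libraries listed at 0. KRT7, KRT19 and KRT16 show separated groups at unlike levels, and KRT5 and KRT14 lie near the bottom of the axis.

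Without serine and glycine, 3 of the 8 keratins that could be tested fell, namely KRT7 and KRT19 of the simple group and KRT16 of the stratified group, and 0 rose. A call is a Benjamini-Hochberg adjusted p under 0.05 over all genes by edgeR's quasi-likelihood test on counts. Of all 12548 genes tested, 6.95% were called, 4.22% lower and 2.73% higher. In CPM, counts scaled to library size, the 3 deprived libraries lay below the 3 of complete medium for 4 of the 8 keratins, as they did for 16.4% of all genes tested. In either direction the groups were separate for 32.6% of all genes. At an unadjusted p under 0.05, 4 keratins were lower and 0 higher, beside 14.4% of all genes lower and 12.9% higher. DESeq2 and limma voom each called the 3 lower and 0 higher. The background was 5.94% lower and 3.99% higher by DESeq2, and 4.14% lower and 2.7% higher by voom. The same 3 genes were called lower with DESeq2's size factors (4.21% of all genes), with library totals (3.61%) and without the filter on low counts (3.89%). They were also called by limma on log2(FPKM + 1) (1.86%), log2(FPKM + 0.1) (1.97%) and log2(TPM + 1) (0.646%). Their limma adjusted p in these fits was near the threshold, at 0.0419, 0.0401 and 0.0454 to 0.0496 in this order. With the library numbers as a block, in an alternative fit, 5 keratins were called lower, beside 13.2% of all genes lower and 11.1% higher. In 4 of the 6 fits that left out 1 library edgeR called 0 keratins, and 0.0% of all genes. The median log2 fold change of the 8 was -0.22, beside 0.00 (-0.0007) over all tested genes, and the fold change of each of the 8 was below 0. In RNA of whole cultures, fewer cells that make a keratin and less of its RNA per cell cannot be told apart.

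KRT7 is a type II keratin and the most abundant of the 10 (NCBI Gene 3855, chromosome 12, 52232520 to 52252186 on GRCh38, plus strand). By the edgeR fit on counts, not by TPM, it fell by 27.8%. It was at 2076, 2128 and 1918 TPM in the deprived medium, against 2645, 2860 and 2644 TPM in complete medium. The groups were far apart, with the highest deprived library well below the lowest complete one. In CPM the means were 1393 ± 77.7 in the deprived medium and 1930 ± 134 in complete medium (SD, n = 3 each). The log2 fold change was -0.47 (SE 0.082, 95% confidence interval -0.65 to -0.29, edgeR adjusted p = 0.0221).

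KRT19 is a type I keratin that lacks the usual tail domain (NCBI Gene 3880, chromosome 17, 41523617 to 41528308, minus strand). By the same edgeR fit as KRT7 it fell by 28.4%, almost the same proportion. Its level was 84.5, 85.4 and 77.9 TPM in the deprived medium, against 108.9, 114.9 and 108.6 TPM in complete medium. All 3 deprived libraries were low and the groups did not overlap. The means were 46.5 ± 2.29 CPM in the deprived medium and 65.0 ± 3.59 CPM in complete medium (SD, n = 3 each), and the log2 fold change was -0.48 (SE 0.071, 95% interval -0.64 to -0.32, edgeR adjusted p = 0.0217).

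KRT7 and KRT19 kept the same proportion to each other although both fell. The ratio of KRT7 to KRT19 in TPM was 24.6, 24.9 and 24.6 in the deprived medium, against 24.3, 24.9 and 24.3 in complete medium. The groups overlapped, and their means of 24.7 ± 0.196 in the deprived medium and 24.5 ± 0.337 in complete medium differed by less than the spread. Among the 9688 genes with a mean of at least 10 CPM, KRT19 was the gene whose log2 CPM over the 6 libraries was most like that of KRT7, with a Pearson correlation of 0.998. ARHGAP4 followed at 0.998, and NBAS, of vesicle transport between the Golgi and the endoplasmic reticulum, at 0.997. These correlations rest on 6 libraries in 2 media, share the depth and composition of those libraries, and are given as a description.

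The founding pair KRT8 and KRT18 changed less in size and was not called. KRT18 (type I, NCBI Gene 3875, chromosome 12, 52948871 to 52952901, plus strand) was at 1140, 1112 and 1088 TPM in the deprived medium, against 1196, 1240 and 1151 TPM in complete medium. The groups did not overlap, but the gap between them was narrow. The CPM means were 640.5 ± 12.5 in the deprived medium and 716.3 ± 37.96 in complete medium (n = 3 each), for a log2 fold change of -0.16 (SE 0.067, 95% interval -0.31 to -0.01, edgeR adjusted p = 0.156). With the library numbers as a block the adjusted p of KRT18 was 0.0342, and without both libraries numbered 1 it was 0.0196.

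KRT8 (type II, NCBI Gene 3856, chromosome 12, 52897187 to 52949954, minus strand) was at 715.3, 508.4 and 506.8 TPM in the deprived medium, against 661.2, 628.2 and 548.0 TPM in complete medium. The groups overlapped, since deprived library 1 held the highest level of the 6 and the other two the lowest. The log2 fold change was -0.15 (SE 0.115, 95% interval -0.40 to 0.11, edgeR adjusted p = 0.436). Without deprived library 1 it was -0.30 (adjusted p = 0.0245), and without both libraries numbered 1 it was -0.26 (adjusted p = 0.00648). The call on KRT8 thus depends on the libraries numbered 1, and its interval in the full comparison reaches from a fall near that of KRT7 to a small rise.

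The ratios between pairs moved with these unequal changes. KRT7 over KRT18 was 1.82, 1.91 and 1.76 in the deprived medium, against 2.21, 2.31 and 2.297 in complete medium. KRT8 over KRT18 was 0.628, 0.457 and 0.466 in the deprived medium, against 0.553, 0.507 and 0.476 in complete medium. The groups were separate for the ratio of KRT7 to KRT18 and overlapped for that of KRT8 to KRT18. Summed over the 3 type II and the 7 type I genes, type II transcripts outnumbered type I by 1.93 ± 0.0878 to 1 in the deprived medium and by 2.24 ± 0.0165 to 1 in complete medium (SD, n = 3 each). The type II sum is mostly KRT7. That gene alone made 51.4 ± 1.75% of the summed TPM of these genes in the deprived medium and 56.4 ± 1.08% in complete medium. KRT80, a type II keratin outside this set and given further below, is not in these sums.

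**Figure D2:**
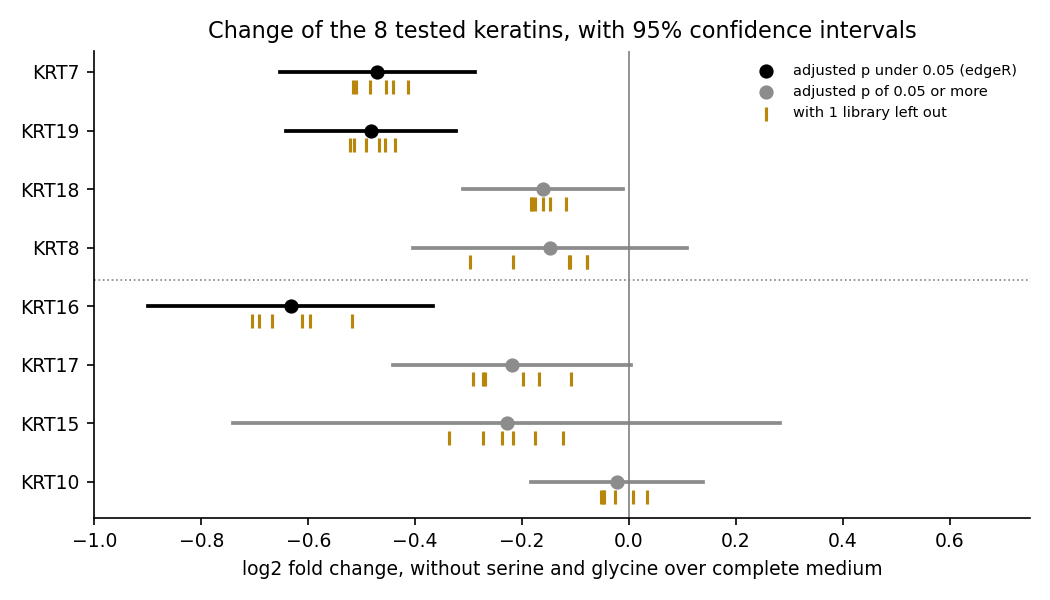
Log2 fold change of the 8 tested keratins, deprived over complete medium, with unadjusted 95% confidence intervals from the edgeR fit, and ticks for the value with 1 library left out; simple keratins are above the dotted line and stratified ones below it. The intervals of KRT7, KRT19 and KRT16 lie farthest from 0, and the ticks of KRT8 spread from -0.30 to -0.08.

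Among the stratified keratins KRT16 was called. KRT16, a type I keratin known from wound edges and fast-growing epithelium (NCBI Gene 3868, chromosome 17, 41609778 to 41615899, minus strand), fell by 35.5%, the largest fitted fall of the 8. It was at 17.2, 18.4 and 16.5 TPM in the deprived medium, against 25.4, 29.1 and 23.1 TPM in complete medium. Every deprived library was below every complete library. The CPM means were 12.1 ± 0.864 in the deprived medium and 18.8 ± 2.55 in complete medium (n = 3 each), a log2 fold change of -0.63 (SE 0.120, 95% interval -0.90 to -0.37, edgeR adjusted p = 0.0246).

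KRT17, its neighbour on chromosome 17 and a fellow marker of activated epithelium (NCBI Gene 3872, 41619441 to 41624842, minus strand), was at 87.1, 92.6 and 78.0 TPM in the deprived medium, against 92.0, 107.7 and 88.2 TPM in complete medium. The groups overlapped, with library 2 the highest in each medium. The log2 fold change was -0.22 (SE 0.10, 95% interval -0.44 to 0.00, edgeR adjusted p = 0.189, and 0.0232 with the library numbers as a block). KRT16 over KRT17 was 0.197, 0.199 and 0.211 in the deprived medium, against 0.276, 0.271 and 0.261 in complete medium, so the groups were separate for this ratio. The genes whose log2 CPM was most like that of KRT17 over the 6 libraries, with the same limits as above, were the tyrosine kinase gene FER at a correlation of 0.994, VPS35L, of endosomal recycling, at 0.992, and TAPT1 at 0.989.

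KRT10, the type I keratin of suprabasal cells (NCBI Gene 3858, chromosome 17, 40818117 to 40822595, minus strand), showed no difference beyond the spread. It was at 56.3, 55.7 and 57.2 TPM in the deprived medium, against 61.3, 51.6 and 52.9 TPM in complete medium. The deprived libraries all lay within the range of the complete ones. Its log2 fold change of -0.02 (SE 0.072, 95% interval -0.18 to 0.14, edgeR adjusted p = 0.874) was slightly above 0 by library totals and on FPKM or TPM. KRT10 made 35.0 ± 2.14% of the stratified sum in the deprived medium and 30.9 ± 3.46% in complete medium.

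KRT15, a type I keratin of basal and stem-like cells (NCBI Gene 3866, chromosome 17, 41513743 to 41522529, minus strand), was rare, with 25, 28 and 27 counts in the deprived medium, against 26, 31 and 35 in complete medium. The groups overlapped, and the log2 fold change of -0.23 had an interval from -0.74 to 0.28 (edgeR adjusted p = 0.556), so a change of the size seen in KRT7 was not detectable at this depth.

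The basal pair KRT5 and KRT14 was nearly absent, and neither gene passed the filter on low counts. KRT5, type II (NCBI Gene 3852, chromosome 12, 52514575 to 52520687, minus strand), had 0 counts in each deprived library, against 1, 0 and 4 counts in complete medium. A count of 0 allows up to 3 counts, or 0.176 to 0.180 CPM in the deprived libraries, counting error only. KRT14, type I (NCBI Gene 3861, chromosome 17, 41582279 to 41586921, minus strand), had 1.01, 2 and 3 counts in the deprived medium, against 4, 1 and 1 in complete medium. No fold change is given for either gene. The p53 relative TP63, a regulator of basal keratin genes, was at 1.95 to 2.37 TPM in the deprived medium and 2.05 to 3.06 TPM in complete medium.

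**Figure D3:**
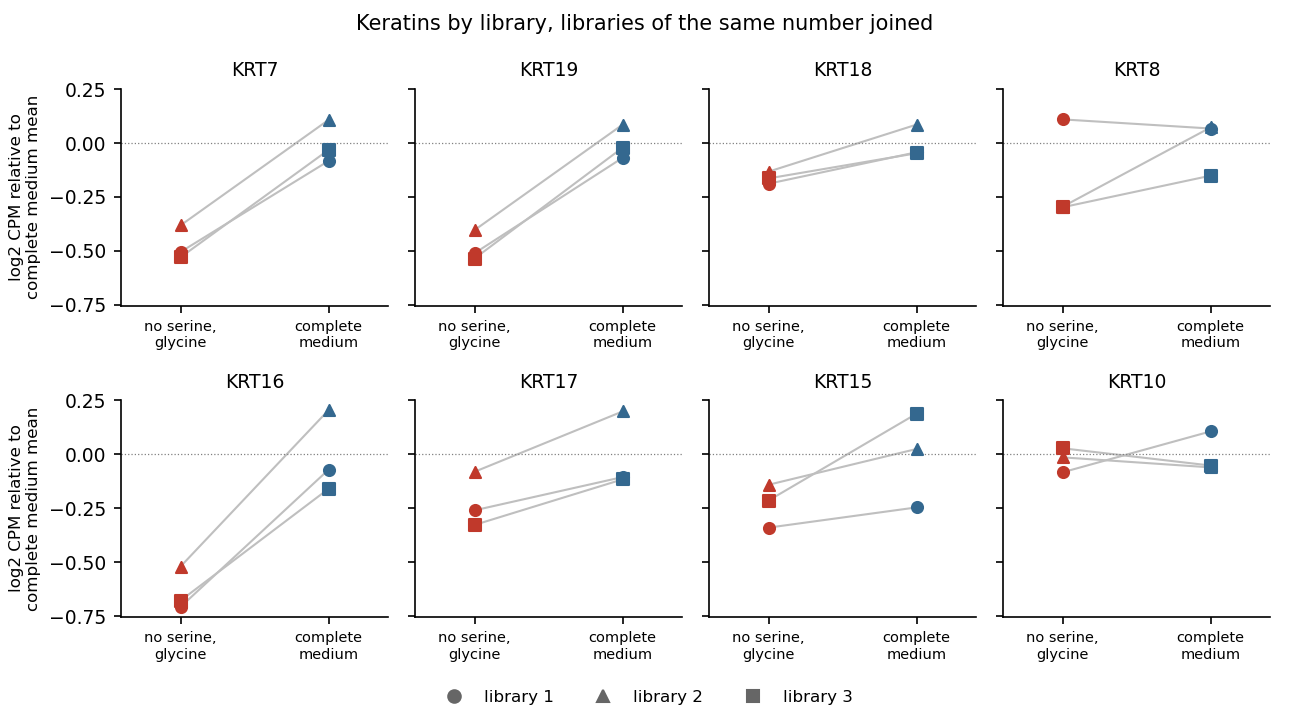
Log2 CPM of the 8 tested keratins in each library relative to the mean of complete medium, with the deprived medium on the left, 1 marker shape per library number and lines that join libraries of the same number. For KRT7, KRT19, KRT18, KRT16 and KRT17 the triangle of library 2 is the highest point in each medium, and for KRT8 the line of number 1 goes the other way from the rest.

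In CPM, library 2 was the highest of its medium for 6 of the 8 tested keratins in the deprived medium and for 6 in complete medium. It was the highest in both media for 5 of them, namely KRT7, KRT16, KRT17, KRT18 and KRT19. In TPM, KRT18 was highest in library 1 of the deprived medium. Over all tested genes library 2 was the highest in CPM for 27.3% in the deprived medium, 36.1% in complete medium and 13.4% in both. KRT8, KRT10 and KRT15 did not follow this order in both media. Between libraries of the same number, the log2 ratio of deprived to complete medium was -0.42, -0.49 and -0.50 for KRT7 and -0.44, -0.49 and -0.51 for KRT19. For KRT16 it was -0.64, -0.73 and -0.52, and for KRT17 -0.15, -0.28 and -0.21. These values were below 0 at each number. For KRT8 they were 0.04, -0.37 and -0.15, and for KRT10 -0.19, 0.05 and 0.08, so that the sign differed between numbers. With the number as a block in the fit, 5 keratins were called lower and 0 higher, the added genes being KRT17 and KRT18, beside 24.3% of all tested genes, 13.2% lower and 11.1% higher. When both libraries numbered 1 were left out, a choice made after seeing the data, 5 were called lower, the added genes being KRT8 and KRT18, beside 15.5% of all genes.

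The calls needed most of the libraries. Without library 2 or 3 of either medium edgeR called 0 keratins and 0.0% of all genes, with the adjusted p of KRT7, KRT16 and KRT19 between 0.0629 and 0.114. In these 4 fits limma voom called 0. Without library 2 or 3 of the deprived medium 4 and 3 keratins had an unadjusted p under 0.05, beside 22.5% and 20.7% of all genes. Without library 2 or 3 of complete medium 3 and 4 did, beside 17.1% and 19.7%. DESeq2 called 3 keratins without library 2 or 3 of the deprived medium, beside 4.75% and 3.13% of all genes. It called 2, KRT7 and KRT19, without library 2 of complete medium, beside 1.87%, and 3 without library 3, beside 3.33%. Without library 1 of the deprived medium 4 keratins were called lower, beside 7.74% of all genes, and without library 1 of complete medium 3, beside 6.23%.

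**Figure D4:**
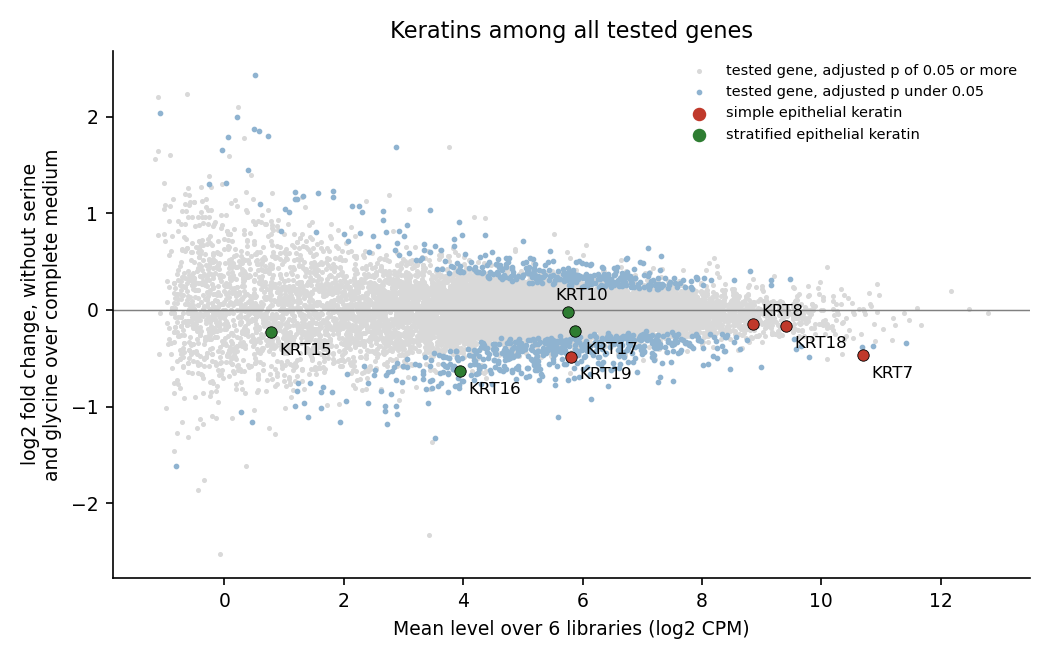
Log2 fold change, deprived over complete medium, against mean level in log2 CPM for all 12548 tested genes, called genes in blue, with the simple keratins in red and the stratified ones in green. KRT7 lies at the abundant end of the called genes, while KRT16 and KRT19 lie among many called genes of like size.

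Some keratin reads match more than 1 gene. Keratin genes arose by duplication, and the coding sequence at the start of the central rod, the helix initiation motif, is among the most conserved parts. The following 75 bases are shown because a read that lies wholly within them does not by itself tell KRT14 from KRT16. They come from the longest coding run that KRT16 and KRT14 share, 158 bases, in exon 1 on chromosome 17, minus strand (GENCODE 29 transcripts, GRCh38), with capitals for bases that differ from KRT16. The stretches lie at chr17:41612257-41612331 in KRT16, chr17:41586409-41586483 in KRT14, chr17:41624177-41624251 in KRT17 and chr17:41527927-41528001 in KRT19.
KRT16: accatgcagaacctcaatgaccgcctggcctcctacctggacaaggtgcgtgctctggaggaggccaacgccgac
KRT14: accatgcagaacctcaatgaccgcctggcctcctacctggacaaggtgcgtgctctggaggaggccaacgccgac
KRT17: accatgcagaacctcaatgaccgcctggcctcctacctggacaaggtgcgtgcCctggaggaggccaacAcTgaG
KRT19: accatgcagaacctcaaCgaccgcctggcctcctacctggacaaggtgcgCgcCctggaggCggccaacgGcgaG
KRT14 had 0 differences from KRT16 in this stretch, KRT17 had 4 and KRT19 had 6.

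Over whole transcripts, the share of 50-base stretches that also occur in a transcript of another gene, on either strand, was 47.6% for KRT18 and 37.1% for KRT8. It was 23.8% for KRT14, 22.0% for KRT16, 17.4% for KRT17 and 10.8% for KRT7. For KRT19 it was 1.79%, and for KRT10 and KRT15 0.434% and 0.328%. The partners with the most shared stretches of KRT8, KRT17 and KRT16 were the pseudogenes KRT8P3, KRT17P1 and KRT16P3, which are not among the genes analysed here. KRT14 held 11.3% of the stretches of KRT16, and the antisense gene KRT7-AS, also not analysed here, held 10.4% of those of KRT7. The annotated intervals of KRT8 and KRT18 overlap on opposite strands, and KRT8 transcripts held 21.5% of the stretches of KRT18. The labels do not say whether strand was kept. It is thus not known whether reads of KRT7 and its antisense gene, or of KRT8 and KRT18 in their overlap, can be told apart. With 100-base stretches the shares were at most 16.6%, that of KRT18. No source used here states the read length.

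**Figure D5:**
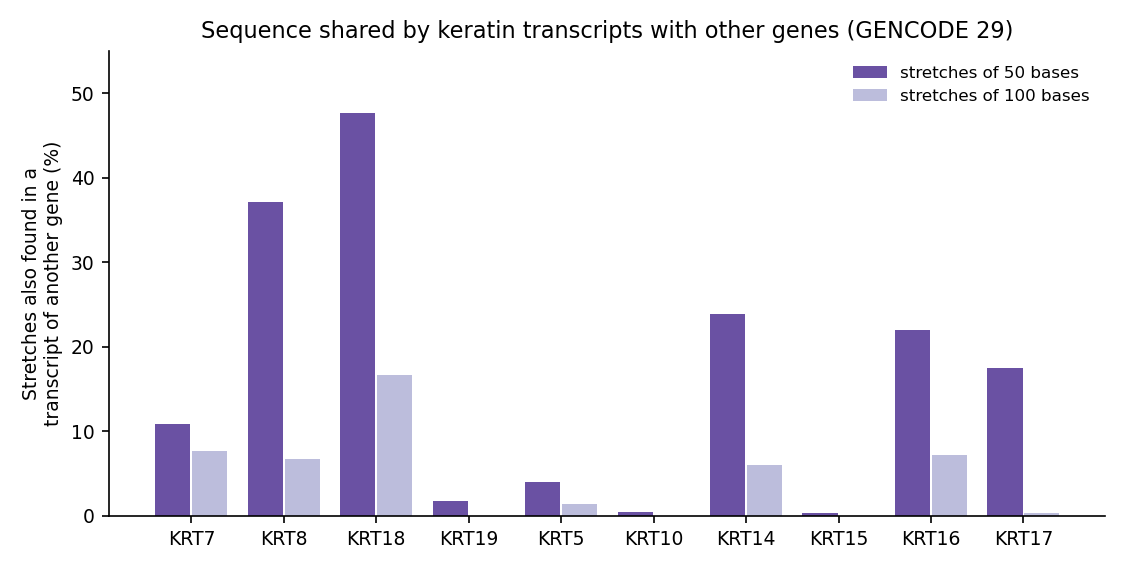
Share of the 50-base (dark) and 100-base (light) stretches of each keratin's main transcript that occur in a transcript of another gene in GENCODE 29, on either strand, in percent. KRT18 and KRT8 share most, and KRT19, KRT10 and KRT15 share almost none at 50 bases.

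Few of the authors' estimated counts for keratins were fractional. Of the 60 keratin values, 2 were not whole numbers within 0.001, both in deprived library 1, namely 1.01 for KRT14 and 197.99 for KRT16. They sum to 199, the sum being 222 and 203 in the other deprived libraries, against 304, 360 and 282 in complete medium. When the counts of KRT14 and KRT16 were summed as 1 feature, a setting chosen after the data were seen, the log2 fold change was -0.63 (edgeR adjusted p = 0.0246). Whole values do not show that no reads were shared, since KRT8 and KRT18 had whole values too. The part of reads from pseudogenes and from KRT7-AS in these values was not tested.

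Other genes of the keratin network were mostly not called. Of 45 other keratin symbols 18 were in the table, 4 were tested and 0 were called by edgeR, DESeq2 or limma voom, with 1 lower at an unadjusted p under 0.05. That gene was the hair keratin KRT34, at 1.59 ± 0.376 CPM in the deprived medium and 2.70 ± 0.614 CPM in complete medium (log2 fold change -0.76, edgeR adjusted p = 0.0966, and 0.0340 with the block). DESeq2 gave KRT34 no adjusted p and so could not call it. KRT80, a type II keratin named here after its values were seen, was at 431.0, 382.8 and 358.2 TPM in the deprived medium, against 425.5, 374.6 and 388.3 TPM in complete medium. It was thus more abundant per length than any of the stratified members, with overlapping groups and a log2 fold change of -0.07 (edgeR adjusted p = 0.540). Of 9 tested intermediate filament genes of other classes, 0 were called by these 3 tools, with 1 lower at an unadjusted p under 0.05, and 1 was lower with the block. NEFH, a neurofilament subunit, had the smallest p, at 33.6 ± 2.40 CPM in the deprived medium and 39.7 ± 2.87 CPM in complete medium (log2 fold change -0.24, edgeR adjusted p = 0.106, and 0.0415 with the block). Its adjusted p was 0.0378 when deprived library 1 was left out and 0.0169 when both libraries numbered 1 were. VIM had a log2 fold change of -0.11 (edgeR adjusted p = 0.449).

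Among 16 tested genes that tie keratin filaments to desmosomes or bundle them, 2 fell and 0 rose, with 3 lower and 2 higher at an unadjusted p under 0.05. EPPK1, epiplakin, which binds and bundles keratin filaments, was at 34.4, 34.3 and 34.1 CPM in the deprived medium, against 50.2, 64.1 and 61.3 CPM in complete medium. The deprived libraries were close together and far below the others, with a log2 fold change of -0.77 (SE 0.093, edgeR adjusted p = 0.0184). PKP3, plakophilin 3 of the desmosome plaque, was at 31.0, 31.1 and 26.6 CPM in the deprived medium, against 43.0, 49.9 and 42.0 CPM in complete medium, again without overlap (log2 fold change -0.60, SE 0.094, edgeR adjusted p = 0.0217, and 0.0504 by limma on TPM). The median log2 fold change of the 16 was 0.05. The main linkers DSP, desmoplakin, and JUP, plakoglobin, had log2 fold changes of 0.05 and 0.17 (edgeR adjusted p = 0.617 and 0.164), and PLEC, plectin, one of -0.10 (0.380). JUP was called higher without both libraries numbered 1 (log2 fold change 0.25, adjusted p = 0.00154), and TCHP, trichoplein, named after its values were seen, with the block (0.21, 0.0459). EPPK1 and PKP3 lost their calls, as the keratins did, without library 2 or 3 of either medium.

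Among genes of keratinocyte differentiation and regulators of epithelial genes, SBSN alone was called. Of 6 tested genes of differentiation and the cornified envelope, 1 was higher and 0 lower, with 1 higher and 1 lower with the block and 1 higher and 2 lower without both libraries numbered 1. SBSN, suprabasin, was at 2.04, 1.13 and 2.41 CPM in the deprived medium, against 0.837, 0.182 and 0.360 CPM in complete medium (log2 fold change 2.0, SE 0.470, edgeR adjusted p = 0.0367, and 0.0525 to 0.0563 by limma on FPKM or TPM). All these levels are low, and the groups did not overlap. The SBSN value ran from 1.63 to 2.75 with 1 library left out, being 2.75 without library 1 of complete medium, and it was 2.68 without both libraries numbered 1. The lower genes, named after their values were seen, were TGM1, transglutaminase 1 of the cornified envelope, and CDSN, corneodesmosin. TGM1 had a log2 fold change of -0.63 (edgeR adjusted p = 0.0699, 0.0203 with the block and 0.0155 without both libraries numbered 1). CDSN was at 2.05, 0.61 and 0.45 TPM in the deprived medium, against 1.24, 1.43 and 1.49 TPM in complete medium, with adjusted p of 0.520 and, without both libraries numbered 1, of 0.00613. Of 14 tested transcription factors of epithelial genes, 0 were called by edgeR, DESeq2 or limma voom, with 1 lower at an unadjusted p under 0.05. EHF, an ETS-family factor, was higher with the block (adjusted p = 0.00348), and EHF and CEBPB, a factor of differentiation, were higher without both libraries numbered 1 (0.00280 and 0.00132), against 0.605 and 0.574 in the full comparison. Both were named after their values were seen. GRHL1, a grainyhead-like factor, had the smallest p, at 9.56 ± 0.984 CPM in the deprived medium and 11.7 ± 1.34 CPM in complete medium (log2 fold change -0.29, edgeR adjusted p = 0.182). KLF5, an activator of epithelial genes, had a log2 fold change of -0.07 (adjusted p = 0.619) and TP63 one of -0.30 (0.268). Of the 6 tested epithelial markers 0 were called by the 3 tools, with 1 lower at an unadjusted p under 0.05, ESRP2, an epithelial splicing regulator, at 72.4 ± 5.27 CPM in the deprived medium and 80.7 ± 2.04 CPM in complete medium (log2 fold change -0.16, edgeR adjusted p = 0.177).

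Of the markers of other cell types, 0 of 5 tested fibroblast genes and 0 of 2 tested endothelial genes were called by the 3 tools, with 1 and 0 lower at an unadjusted p under 0.05. DESeq2 gave PDGFRB and CDH5 no adjusted p and so could not call them. PDGFRB, a growth factor receptor of mesenchymal cells, was at 1.61 ± 0.110 CPM in the deprived medium and 2.60 ± 0.477 CPM in complete medium (log2 fold change -0.69, edgeR adjusted p = 0.0840, and 0.0454 with the block), and CDH5, the endothelial cadherin, at 1.29 ± 0.582 CPM in the deprived medium and 0.782 ± 0.320 CPM in complete medium (log2 fold change 0.72, adjusted p = 0.294). Of 2 tested immune genes CD68 was lower, at 37.0 ± 2.15 CPM in the deprived medium and 53.9 ± 5.29 CPM in complete medium (log2 fold change -0.54, edgeR adjusted p = 0.0217, and 0.0504 by limma on TPM). The other, CD14, was at 1.23, 2.14 and 2 TPM in the deprived medium, against 0.88, 0.25 and 0.84 TPM in complete medium, with an edgeR adjusted p of 0.0764, of 0.0404 with the block and of 0.00785 without both libraries numbered 1. The part of these markers in the keratin results was not tested. The leukocyte genes PTPRC, ITGAM and CSF1R were each at 0.10 TPM or less in every library.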

How the data were processed

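RNA of 6 C666-1 libraries was sequenced on the DNBSEQ platform. The submitters' processing notes name GRCh38, RSEM 1.3.1 and Bowtie2 2.3.4.3 without their roles, and no annotation release is stated. What the authors deposited are gene-level expected counts, some with decimals, beside FPKM and TPM values, scaled by gene length and depth. Library and group were read from the titles. Expected counts were rounded and tested on the whole table in R 4.3.3 with edgeR 4.0.16. The filter filterByExpr (minimum count 10, minimum total 15) left 12548 of 16407 genes, libraries were scaled by TMM, and medium was the term of a robust quasi-likelihood fit. P-values are two-sided and adjusted over all tested genes. SEs were taken from the log2 fold change and the F statistic, and intervals use the fit's degrees of freedom. CPM uses TMM-scaled totals.

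Deviations from the group means correlated between libraries of the same number at 0.326, 0.141 and 0.190. All exceed 0.1, although 1 pair of unlike number reached 0.163. The numbers were therefore used as a block in an alternative fit, while the main fit did not pair the libraries. The labels do not say what a number marks. Alternatives were other scalings, no filter, DESeq2 1.42.0, limma 3.58.1 (voom, or log2 of FPKM or TPM with a pseudocount of 1, or 0.1 for FPKM), a block for the number and leaving out libraries. By the rule set for naming, named genes are the members and, in each other list, the called genes, at most 4. Where none was called, the gene with the smallest p was named. The 3 genes most like the most abundant simple and stratified keratin were added. Other genes were named outside this rule, among them CLDN7, EPCAM, CDH1, RAB25, VIM, DSP, JUP, PLEC, KLF5, TP63, PTPRC, ITGAM, CSF1R and CD14. The members and lists were chosen with earlier results of these data known. The procedure was also run on simulated counts. These held no effect shared by libraries of the same number, and no result here rests on them. The share of a keratin's 50-base or 100-base stretches found in other genes was computed from GENCODE 29 transcripts.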

Additional observations from a re-analysis of the deposited data

How the results depend on the processing

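Over all genes 872 were called. The count was 3044 with the replicate block, 340 by limma on log2(FPKM + 1), 356 on log2(FPKM + 0.1), 117 on log2(TPM + 1), and 3643 when both libraries numbered 1 were dropped, a choice made after seeing the data. It ranged from 0 to 1737 with 1 library left out. Of the keratins 3 were called, 5 with the replicate block and 5 without both libraries numbered 1, and 0 to 4 with 1 library left out. Of the simple keratins 2 were called, 4 without both libraries numbered 1, and 0 to 3 with 1 library left out. Of the stratified keratins 1 was called, 2 with the replicate block, and 0 to 1 with 1 library left out. The replicate block changed the call of no member besides KRT17 and KRT18, and outside the members KRT34, NEFH, TCHP, TGM1, EHF, PDGFRB and CD14 were called with it. KRT7, KRT16 and KRT19 were called under each setting run on all 6 libraries. KRT10, not called under any setting, had a log2 fold change above 0 by library totals (0.0025), by limma on log2(FPKM + 1) (0.0081), on log2(FPKM + 0.1) (0.0085) and on log2(TPM + 1) (0.034), without both libraries numbered 1 (0.066), and in 2 of the 6 fits with 1 library left out, whose values ran from -0.052 to 0.034. The cause of these differences was not tested. Fits with libraries left out have fewer samples, and their counts over all genes lay both below and above the 872 of the main fit. The stratified share of the members' summed TPM was 0.345 percentage points higher in the deprived medium, from 0.270 to 0.437 with 1 library left out. Counts of 4 or fewer limit KRT5 and KRT14, and DESeq2 gave KRT15, KRT34, SBSN, PDGFRB, CDH5 and CD14 no adjusted p.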
